A study of Mus musculus with 12 samples.

Results

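Foxo1, Foxo3, Foxo6, Foxp1, Foxp2 and Foxp4 are forkhead transcription factor genes of the FOXO and FOXP subfamilies. The 6 genes were taken by symbol from the 55335 genes of the deposited feature tables and were described in nuclei of newborn mouse forebrain. They were selected on the level of Foxo1, which differed between the genotypes in D2-type striatal nuclei in earlier results of these data, so that difference is given below as a description.

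Single-nucleus RNA sequencing was carried out on frozen forebrain of postnatal day 1 mice. There were 8 WT libraries (5 male and 3 female) and 4 Het libraries (3 male and 1 female), 1 library per labelled replicate. Het mice carried 1 copy of the MYT1L S710fsX frameshift allele and WT mice came from the same line, which was kept by crossing Het mice to C57BL/6J, so that the results describe a single mutant line in which the allele is present in every cell from conception. Fixed nuclei were barcoded combinatorially, with the genotypes of this age processed on the same plates. The animals were generally littermates from a few banked litters, and the litter of each animal was not given in the sources used here.

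FOXO proteins bind the forkhead motif and are held in the cytoplasm when insulin or growth factor receptors activate PI3 kinase and AKT. With little of that signal they enter the nucleus and switch on genes of stress resistance, cell cycle arrest and metabolism. FOXP proteins act mostly as repressors, and they bind DNA as dimers that can form between different members. Foxp1 and Foxp2 are known for their part in the development of striatal projection neurons, and Foxp2 for its part in vocal learning and speech. Projection neurons of the striatum are of the D1 type, which carries the dopamine receptor Drd1 and sends axons directly to the output nuclei of the basal ganglia, or of the D2 type, which carries Drd2 and sends axons to the pallidum.

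Of 126684 barcodes, none of which was found in more than 1 library, 94467 nuclei were kept, 55108 WT and 39359 Het, with a median of 1896 UMIs (unique molecular identifiers, or counted transcripts). Library totals ran from 15439429 to 40784144 UMIs. Clustering without the 6 genes gave 49 clusters, 34 of which were named in 16 classes by their markers, and "-like" marks a name given in this way. The named clusters held 75.0% of the kept nuclei. The 15 unnamed clusters held 23576 nuclei, which the class levels and the tests by class leave out. The D1-like class held 6015 nuclei in 3 clusters and the D2-like class 3409 nuclei in 1. WT 4 stood apart, with 22 D1-like and 13 D2-like nuclei against 219 to 753 and 133 to 492 in the other WT libraries, and striatal values that it sets are also given without it. The D1-like share of kept nuclei ran from 0.435 to 7.27% in the WT libraries and from 5.37 to 11.3% in the Het libraries.

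The striatal classes were named from lists that hold the marker genes given here, so these levels describe the names and do not check them. Levels throughout are the UMIs of a gene summed over the nuclei of a class in a library and given per 1000000 UMIs of that class and library (CPM), and unless stated otherwise a class level is the mean over libraries. Drd1 stood at 32.9 CPM in D1-like and 1.39 CPM in D2-like nuclei, and Isl1, a D1-type transcription factor, at 140 and 2.77 CPM. Drd2 stood at 4.94 CPM in D1-like and 433 CPM in D2-like nuclei, and Adora2a, the adenosine receptor of the D2 type, at 0.512 and 36.4 CPM. Rarb, a retinoic acid receptor shared by both types, stood at 2395 and 2366 CPM. None of Isl1, Drd2, Drd1 and Adora2a was particular to the striatal types. Isl1 and Drd2 stood at 466 and 440 CPM in cholinergic neuron-like nuclei (n = 6). Drd1 stood at 16.3 CPM in deep-layer excitatory neuron-like nuclei and Adora2a at 28.6 CPM in endothelial-like nuclei. Myt1l itself stood at 1423 ± 110 CPM (SD, n = 8) in the kept nuclei of the WT libraries and at 1571 ± 55.2 CPM (n = 4) in those of the Het libraries, so its level did not check the labels.

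In GRCm38 (mm10) Foxo1 lies on the plus strand at chr3:52268336-52353221, Foxo3 on the minus strand at chr10:42181841-42276755 and Foxo6 on the minus strand at chr4:120267079-120287349. Foxp1 lies on the minus strand at chr6:98925338-99522721, Foxp2 on the plus strand at chr6:14901349-15441977 and Foxp4 on the minus strand at chr17:47867133-47924645. The counting tool's use of strand was not given in the sources used here, and Foxo1 overlaps the antisense gene Gm20402 while Foxp4 overlaps the antisense gene Gm15556, so part of their values may come from those partners. On the same strand Gm38034 overlaps Foxo1, and the protein-coding Gm20696, the intronic Gm20705 and the miRNA genes Gm22328 and Gm49348 overlap Foxp1, so reads there could be split between them whatever the strand setting. The miRNA gene Gm25470 overlaps Foxp2 on the same strand, and the annotation places no other gene over Foxo3 or Foxo6.

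RefSeq promoters (GRCm38.p6, from 250 bases before to 50 bases after a start) were at hand for 4 of the 6 genes. That of Foxo1, whose genotype difference chose the genes, and that of Foxp4, with the largest ratio between the striatal types, are printed 5′ to 3′ on the strand of the gene. Capitals mark CCAAT boxes, searched as CCAAT and its reverse ATTGG, and the core of the motif bound by the MYT1 family, searched as AAGTT and its reverse AACTT.
Foxo1, chr3:52268087-52268386, plus strand: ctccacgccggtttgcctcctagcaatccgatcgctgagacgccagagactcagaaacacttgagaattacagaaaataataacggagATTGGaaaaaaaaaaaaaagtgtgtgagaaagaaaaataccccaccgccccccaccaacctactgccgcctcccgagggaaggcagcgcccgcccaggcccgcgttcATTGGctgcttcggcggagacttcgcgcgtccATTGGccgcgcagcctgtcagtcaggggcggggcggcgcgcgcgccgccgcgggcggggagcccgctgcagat
Foxp4, chr17:47924583-47924882, minus strand: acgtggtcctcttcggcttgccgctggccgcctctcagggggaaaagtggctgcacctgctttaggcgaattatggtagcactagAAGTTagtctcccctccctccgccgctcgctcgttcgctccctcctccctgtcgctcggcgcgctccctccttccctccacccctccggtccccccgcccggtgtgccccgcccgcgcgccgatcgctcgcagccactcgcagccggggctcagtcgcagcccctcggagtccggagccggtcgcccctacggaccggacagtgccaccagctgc
The Foxo1 promoter held 3 CCAAT boxes and no AAGTT, and the Foxp4 promoter held 1 AAGTT and no CCAAT box. Of 32851 RefSeq promoters of the same length, 37.4% held a CCAAT box and 39.3% an AAGTT on either strand. The forkhead motif GTAAACA, or its reverse TGTTTAC, was in 3.65% of all promoters and in 0 of the 6 promoters of these genes.

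Each gene had its own order of classes, and these orders are descriptions, since the classes were made from the same nuclei. The class levels of the 6 genes in this and the next 5 paragraphs are means over the 8 WT libraries. Foxo1 was highest in D1-like nuclei in the WT libraries, at 380 ± 62.5 CPM (SD, n = 8). Endothelial-like nuclei followed at 269 ± 48.0 CPM, mural/fibroblast-like nuclei at 212 ± 34.0 CPM and D2-like nuclei at 198 ± 42.6 CPM. The ranges of neighbours in this order overlapped, and D1-like exceeded endothelial-like nuclei in 7 of 8 libraries. The named classes of cortical excitatory neurons stood far below, with upper-layer excitatory neuron-like nuclei at 19.9 ± 6.14 CPM and deep-layer excitatory neuron-like nuclei at 7.07 ± 1.97 CPM.

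Foxo3, a FOXO gene expressed in many tissues, had its highest mean in Cajal-Retzius-like nuclei, the reelin-secreting neurons of the cortical surface, at 129 ± 39.8 CPM. Microglia-like nuclei followed at 100 ± 41.4 CPM and mural/fibroblast-like nuclei at 81.5 ± 24.3 CPM. Cajal-Retzius-like exceeded microglia-like nuclei in 5 of 8 libraries, with ranges that overlapped. D1-like and D2-like nuclei stood at 50.8 ± 19.7 and 51.8 ± 23.5 CPM. The lowest means among classes with 8 WT libraries were in upper-layer and deep-layer excitatory neuron-like nuclei, at 17.5 ± 2.83 and 15.4 ± 5.26 CPM, within 1 SD of each other.

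Foxo6, a FOXO gene known for its expression in brain, had its highest mean in D2-like nuclei, at 23.0 ± 10.1 CPM. Without WT 4, in which no UMI of the gene was counted, the D2-like mean was 26.3 ± 4.18 CPM (n = 7). Cajal-Retzius-like nuclei stood at 17.2 ± 8.77, CGE inhibitory neuron-like nuclei at 16.2 ± 5.66, D1-like nuclei at 14.2 ± 5.28 and deep-layer excitatory neuron-like nuclei at 13.0 ± 4.06 CPM. D2-like exceeded Cajal-Retzius-like nuclei in 5 of 8 libraries, WT 4 included, with ranges that overlapped. In mural/fibroblast-like nuclei it stood at 0.403 ± 0.90 CPM, with a median of 0.

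Foxp1 had its highest class means in the striatal types. It stood at 4646 ± 418 CPM in D2-like nuclei and 3550 ± 256 CPM in D1-like nuclei. Mural/fibroblast-like nuclei came next at 1864 ± 256 CPM, and every WT library had more Foxp1 in D1-like than in mural/fibroblast-like nuclei, with ranges that did not overlap. That class mean covers uneven clusters, given below, of which cluster 31 stood between the D1-like and D2-like means. Endothelial-like nuclei stood at 1390 ± 323 CPM, upper-layer excitatory neuron-like nuclei at 954 ± 146 CPM and deep-layer nuclei at 580 ± 62.9 CPM. Olfactory-type inhibitory neuron-like nuclei were among the lowest at 220 ± 65.0 CPM.

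Foxp2 had the opposite contrast between cortical layers. Deep-layer excitatory neuron-like nuclei stood at 1712 ± 216 CPM and upper-layer nuclei at 62.8 ± 15.9 CPM. Its highest mean was in olfactory-type inhibitory neuron-like nuclei, at 2246 ± 1098 CPM, where the libraries ran from 930 to 3937 CPM. D1-like nuclei stood at 1763 ± 276 CPM, mural/fibroblast-like nuclei at 1422 ± 271 CPM and D2-like nuclei at 947 ± 235 CPM. Olfactory-type exceeded D1-like nuclei in 4 of 8 libraries, and D1-like exceeded deep-layer nuclei in 4 of 8, with ranges that overlapped.

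Foxp4, a FOXP gene that can pair with Foxp1 and Foxp2, had its highest mean in D1-like nuclei, at 209 ± 53.4 CPM. D1-like exceeded olfactory-type inhibitory neuron-like nuclei in 6 of 8 libraries, with ranges that overlapped. Olfactory-type inhibitory neuron-like nuclei stood at 126 ± 43.1 CPM, mural/fibroblast-like nuclei at 95.8 ± 37.1 CPM and D2-like nuclei at 59.8 ± 38.0 CPM. Without WT 4 the D1-like mean was 197 ± 45.9 CPM and the D2-like mean 46.9 ± 11.1 CPM (n = 7). Upper-layer and deep-layer excitatory neuron-like nuclei stood near each other at 21.4 ± 3.22 and 20.9 ± 5.90 CPM.

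**Figure D1:**
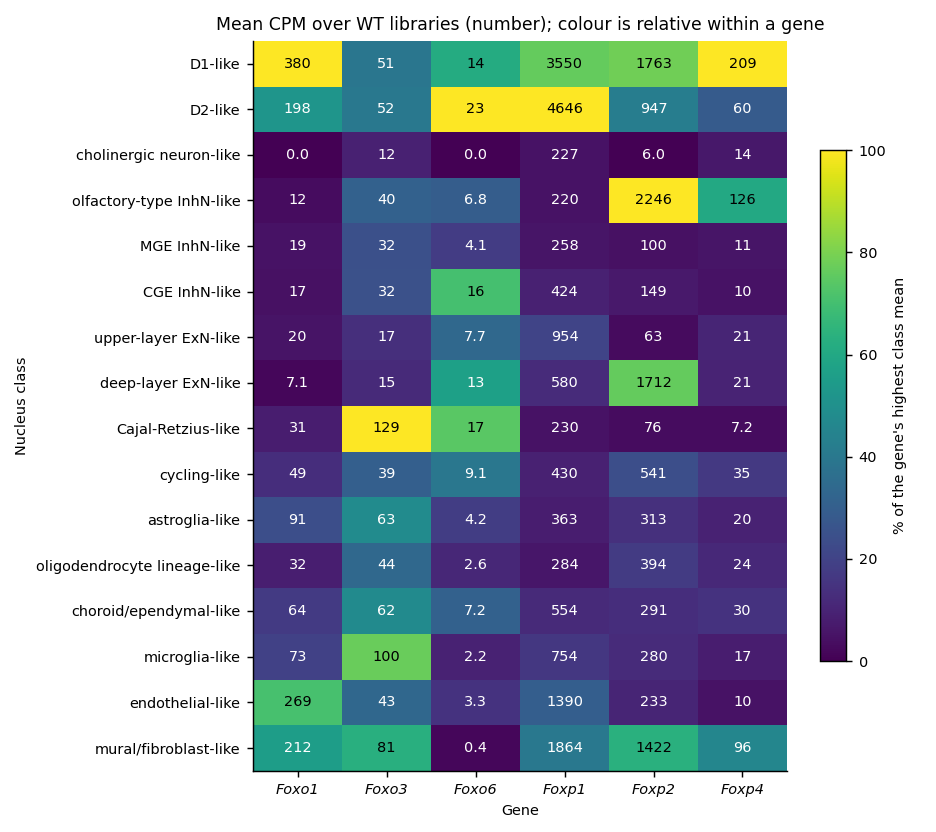
Mean level of each gene in the WT libraries in 16 classes, in CPM, with the colour giving each cell as a percent of that gene's highest class. Foxo1 and Foxp4 had their highest means in D1-like nuclei, at 380 and 209 CPM, and Foxp1 and Foxo6 in D2-like nuclei. Foxo3 had its highest mean in Cajal-Retzius-like nuclei and Foxp2 in olfactory-type inhibitory neuron-like nuclei. For all genes but Foxp1 the range over libraries overlapped that of the next class.

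D1-like and D2-like nuclei of the same library were then set side by side. Foxo1, Foxp2 and Foxp4 were higher in D1-like nuclei in 12 of 12 libraries. The log2 ratio of D1-like over D2-like levels averaged 1.01 ± 0.23 (SD, n = 12) for Foxo1, 1.02 ± 0.45 for Foxp2 and 1.98 ± 0.44 for Foxp4, and without WT 4 it averaged 1.02, 1.10 and 2.08. Foxp1 was higher in D2-like nuclei in 12 of 12 libraries, with a log2 ratio of -0.41 ± 0.081. Foxo6 was higher in D2-like nuclei in each of the 11 libraries with a ratio, at -1.14 ± 0.52, and WT 4 gave none because no Foxo6 UMI was counted in its 13 D2-like nuclei. Foxo3 had a mean ratio of -0.0042 ± 0.59 and was higher in D1-like nuclei in 7 of 12 libraries. The ratios are descriptions, since both classes were clustered from these same nuclei. How many other genes kept the same direction in every library was not counted, so the ratios do not set these genes apart.

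**Figure D2:**
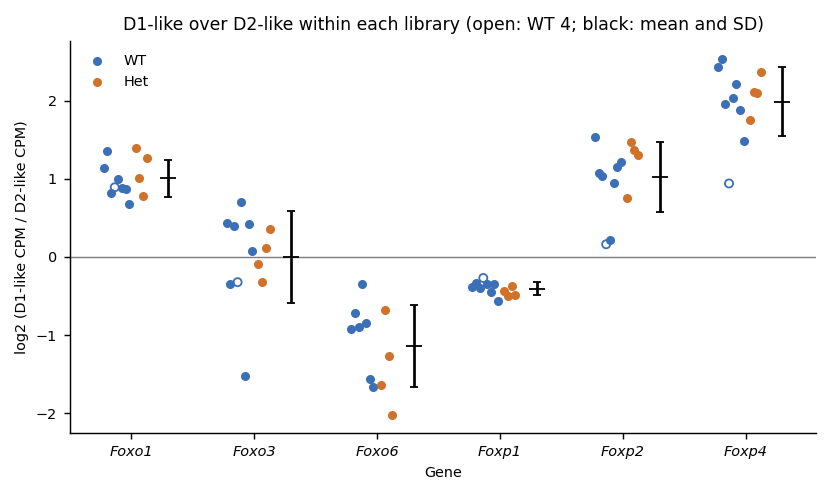
The log2 ratio of the level in D1-like nuclei over that in D2-like nuclei for each library and gene, with a line at 0 for equal levels. All libraries lie above 0 for Foxo1, Foxp2 and Foxp4 and below 0 for Foxp1. The 11 libraries with a ratio lie below 0 for Foxo6, and Foxo3 straddles 0. How many other genes lie on the same side in every library was not counted.

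The ratios of all genes but Foxp4 depended on how nuclei were assigned. When nuclei were gated one by one on striatal and type markers, 39.0% of the nuclei gated as D1-like and 18.4% of those gated as D2-like were in the clusters of those names, and the ratio turned to 0.67 for Foxp1 and to -0.029 for Foxp2. It was then 2.16 for Foxo1, 0.69 for Foxo3, -0.45 for Foxo6 and 1.80 for Foxp4. A gate on shorter marker lists, chosen after seeing the data, gave 71.9 and 76.4% and ratios of -0.34 for Foxp1, 0.96 for Foxp2, 1.23 for Foxo1, -0.065 for Foxo3, -0.98 for Foxo6 and 1.93 for Foxp4.

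Within the classes the genes were uneven, and clusters are named by number because the class names cover several. Cluster levels are means over the libraries of both genotypes with at least 10 nuclei of the cluster, unless WT or Het is named. D1-like cluster 5 held 4559 nuclei, cluster 25 held 982 and cluster 34, led by Isl1, Gpr149 and Dchs2, held 474. Foxo1 stood at 440 ± 83.4 CPM in cluster 5 and 293 ± 69.1 CPM in cluster 25 of the WT libraries, and at 42.7 CPM in cluster 34. Foxp2 had the opposite order and stood at 2767 ± 470 CPM (n = 8) in cluster 34 against 1708 ± 252 CPM (n = 12) in cluster 5. The highest Foxo1 mean of any cluster was in cluster 32, which had no name and whose leading genes included Mybpc1, Frzb, Igf1 and Cdh19, at 667 ± 235 CPM (n = 8).

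Outside the striatum FOXP levels also differed between clusters of the same class, in the classes given here. Mural/fibroblast-like cluster 31, of 686 nuclei led by Bnc2, Itgbl1, Tbx15 and Col12a1, had Foxp1 at 4468 ± 438 CPM, Foxp2 at 3664 ± 527 CPM and Foxp4 at 224 ± 84.2 CPM. Cluster 15 of the same class, with 2419 nuclei led by Ranbp3l, Ptgds and Bmp6, had them at 1024, 690 and 52.1 CPM. In cluster 40, which carried the pericyte genes Abcc9, Pdgfrb and Rgs5, the values were 1264, 458 and 42.9 CPM. Microglia-like cluster 36, with 407 of the 623 nuclei of its class, was led by genes that included Mrc1, F13a1, Stab1 and Lyve1. These mark macrophages of the brain's borders, so most nuclei behind the microglia-like values were of that cluster.

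Foxp2 in the olfactory-type class came mostly from cluster 20, of 1920 nuclei led by Tshz1, Cpne6 and Pbx3, at 2984 ± 1573 CPM with libraries from 990 to 5507 CPM. Cluster 27 of the same class, with 893 nuclei, stood at 680 CPM. Deep-layer cluster 0, of 7067 nuclei with the layer 6 genes Hs3st4 and Tle4 in front, had Foxp2 at 2112 ± 165 CPM, and deep-layer cluster 21 had it at 452 ± 76.5 CPM. Foxp1 among the upper-layer clusters ran from 2011 ± 111 CPM in cluster 3, led by the layer 4 gene Rorb, to 149 ± 33.1 CPM in cluster 4, where Sema3c, Unc5d and Slc17a6 led.

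**Figure D3:**
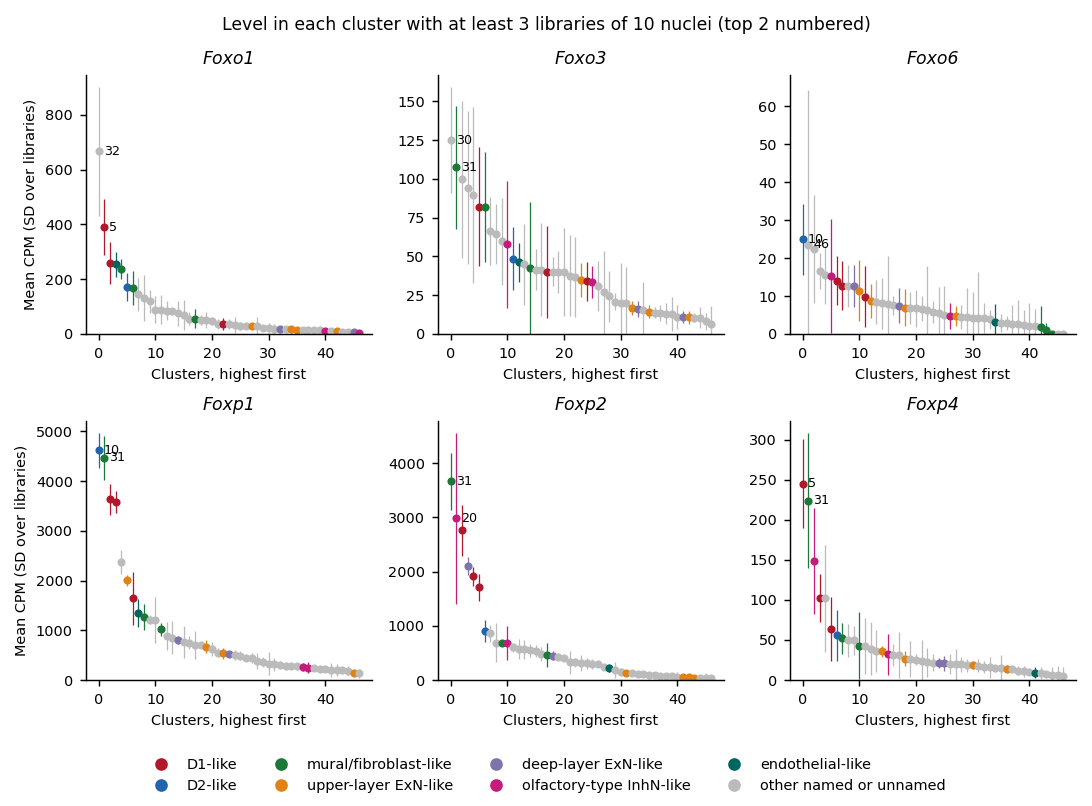
Mean level in CPM with its SD over libraries for each cluster with at least 3 libraries of 10 nuclei, 1 panel per gene, with the 2 highest clusters numbered. Foxo1 was highest in cluster 32, at 667 CPM, and cluster 31 stands out for Foxp1 and Foxp2.

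The question put to the genotypes was whether these levels differed between WT and Het nuclei of the same class. Foxo1 in D2-like nuclei, the value that chose the genes, ran from 135 to 251 CPM in the WT libraries, with a median of 206, and was 128, 123, 119 and 107 CPM in Het 1 to 4. Every Het library was below every WT library, and the log2 difference (Het minus WT) was -0.69, SE 0.14, from a mean of 198 ± 42.6 CPM (n = 8) to 119 ± 9.05 CPM (n = 4). The highest WT value was that of WT 4 and rested on 5 UMIs. Without WT 4 the WT libraries ran from 135 to 239 CPM with a mean of 191 ± 39.9 CPM (n = 7), still above every Het library, and the log2 difference was -0.69. In D2-like nuclei 12 of 6496 genes, 0.185%, had every Het library below every WT library, and 0.416% had groups that did not overlap in either direction. These shares stand beside a value that was itself selected for its size.

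In D1-like nuclei Foxo1 ran from 270 to 465 CPM in the WT libraries, with a median of 386, and was 338, 247, 204 and 257 CPM in Het 1 to 4. Het 1 lay within the WT range, so the groups overlapped. The log2 difference was -0.52, SE 0.12, and edgeR's quasi-likelihood test gave an adjusted p of 0.218 over 9389 genes. The highest WT value was again that of WT 4, on 29 UMIs, and without it the WT libraries ran from 270 to 434 CPM with a mean of 368 ± 56.5 CPM (n = 7) and the log2 difference stayed at -0.52. The same libraries gave the D2-like value, so the D1-like value is no separate support for it. Of all genes in D1-like nuclei, 0.181% had every Het library below every WT library and 0.351% had groups that did not overlap. Within single clusters the Foxo1 means were 440 ± 83.4 CPM (WT) and 291 ± 58.9 CPM (Het) in cluster 5, and 293 ± 69.1 and 203 ± 57.3 CPM in cluster 25. Over all kept nuclei the log2 difference of Foxo1 was 0.017, and over D1-like and D2-like nuclei together it was -0.56, SE 0.12.

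None of the 6 genes passed the call (edgeR, adjusted p under 0.05 and a log2 difference of at least 0.2) in D1-like or in D2-like nuclei, and 0% of all genes passed it in either class. At an unadjusted p under 0.05 there were 537 of 9389 genes (5.72%) in D1-like and 364 of 6496 genes (5.6%) in D2-like nuclei. DESeq2 called 1 gene in each class, Grm3 in D1-like and Cdh8 in D2-like nuclei, neither of them among the 6. Foxo1 was the 1 member under that unadjusted threshold in each class, which in D2-like nuclei was fixed by the choice of the genes.

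None of the other FOXO genes passed the call. Foxo3 in D1-like nuclei ran from 23.6 to 80.2 CPM in the WT libraries, with a median of 43.4, and was 53.3, 38.3, 37.6 and 38.1 CPM in Het 1 to 4. All Het values fell inside the WT range, and the log2 difference was -0.26, SE 0.19 (edgeR, adjusted p = 0.937). Without WT 4, which held the highest value on 5 UMIs, the WT libraries ran from 23.6 to 70.7 CPM. In D2-like nuclei Foxo3 ran from 30.7 to 100.2 CPM (WT, median 47.1) and was 56.7, 47.6, 34.6 and 29.6 CPM in the Het libraries, with a difference of -0.047. The 100.2 CPM was that of WT 4 and rested on 2 UMIs, and the other WT libraries reached 67.6 CPM. Foxo6 in D1-like nuclei ran from 8.80 to 25.0 CPM (WT, median 14.6) and was 12.4, 18.2, 9.0 and 6.49 CPM in the Het libraries, a log2 difference of -0.19, SE 0.27. In D2-like nuclei it ran from 0 to 31.8 CPM (WT, median 25.7) and was 38.8, 29.1, 21.7 and 26.3 CPM in the Het libraries. The 0 was again WT 4, and the other WT libraries started at 18.4 CPM. The Foxo6 groups overlapped in both classes.

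The FOXP genes also overlapped between the genotypes. Foxp1 in D1-like nuclei ran from 3227 to 3879 CPM (WT, median 3563) and was 3449, 3245, 3334 and 3406 CPM in Het 1 to 4, a log2 difference of -0.079, SE 0.092 (edgeR, adjusted p = 0.958). In D2-like nuclei it ran from 3887 to 5118 CPM (WT, median 4725) and was 4647, 4576, 4315 and 4763 CPM in the Het libraries, a difference of -0.027. WT 4 held the lowest WT value in both classes, and without it the WT libraries started at 3238 and 4278 CPM and the log2 differences were -0.12 and -0.079. The Het values of Foxp1 lay inside the WT range in both classes, with WT 4 or without it.

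Foxp2 in D1-like nuclei ran from 1235 to 2049 CPM (WT, median 1913) and was 1645, 2030, 1973 and 1979 CPM in the Het libraries, a log2 difference of 0.096, SE 0.11 (edgeR, adjusted p = 0.958). In D2-like nuclei it ran from 663 to 1390 CPM (WT, median 954) and was 979, 731, 766 and 804 CPM in the Het libraries, a difference of -0.18, SE 0.15. Foxp4 in D1-like nuclei ran from 143 to 289 CPM (WT, median 197) and was 232, 202, 173 and 195 CPM in the Het libraries, a difference of 0.012, SE 0.12. WT 4 held the lowest Foxp2 and the highest Foxp4 value of the D1-like nuclei, and without it the WT libraries started at 1539 CPM for Foxp2 and reached 274 CPM for Foxp4. The log2 difference of Foxp2 in D1-like nuclei was then 0.039. All of these groups overlapped.

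Foxp4 in D2-like nuclei ran from 32.5 to 150 CPM (WT, median 51.6) and was 68.6, 46.7, 40.3 and 37.8 CPM in the Het libraries, a log2 difference of 0.10. The highest WT value was that of WT 4 and rested on 3 UMIs. Without it the WT libraries reached 59.2 CPM with a mean of 46.9 ± 11.1 CPM (n = 7), beside 48.4 ± 14.0 CPM (n = 4) in the Het libraries, and the log2 difference was 0.13.

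**Figure D4:**
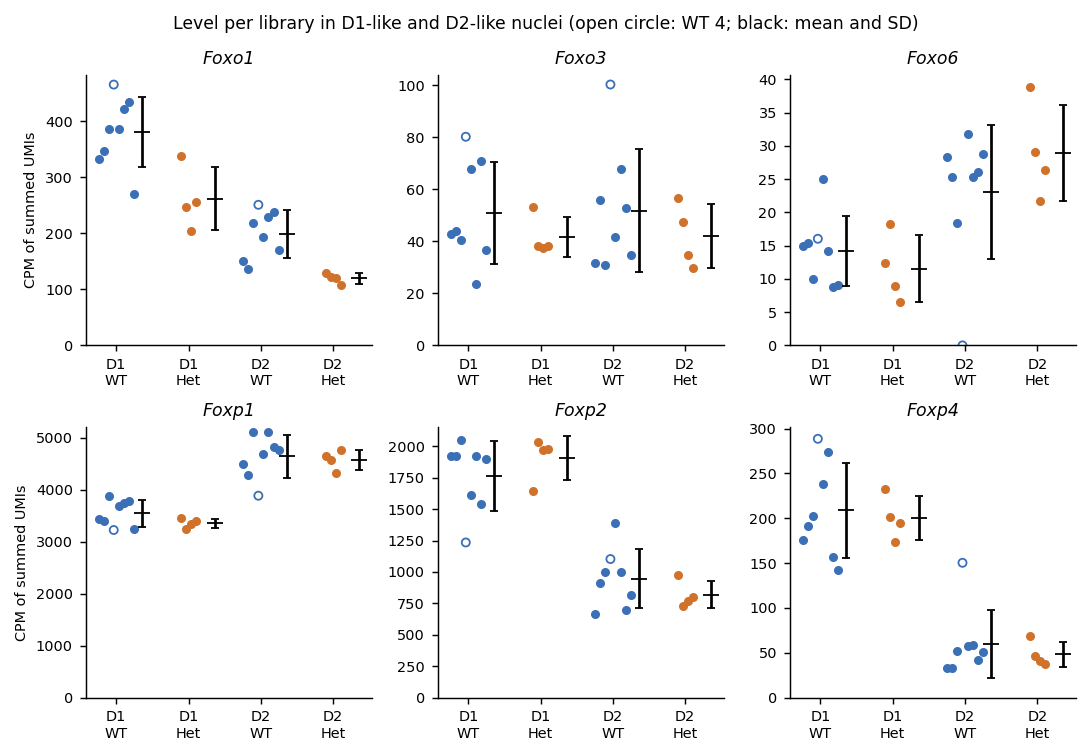
Level of each gene in CPM in each library, for D1-like and D2-like nuclei of WT and Het animals, with the mean and SD of each group and WT 4 as an open circle. Only Foxo1 in D2-like nuclei has all 4 Het libraries, at 107 to 128 CPM, below all 8 WT libraries, at 135 to 251 CPM, and that difference chose the genes.

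Whether the genotype effect differed between the striatal types was tested in edgeR as an interaction over both classes, with the library as a factor. None of the 6 genes was called. For Foxo1 the value was -0.14, SE 0.13 (D2-like minus D1-like), and because it contains the difference that chose the genes it is a description. Across 8481 genes 0% were called and 4.7% had an unadjusted p under 0.05. Markers of other cell types in the striatal nuclei were checked because Foxo1 was also high in endothelial-like and mural/fibroblast-like nuclei. All 8 endothelial markers had UMIs in both classes, and their summed level was 11.7 to 64.1 CPM (WT) and 16.1 to 32.4 CPM (Het) in D1-like nuclei and 9.80 to 50.1 and 13.8 to 47.5 CPM in D2-like nuclei. Without WT 4 the highest WT sums were 23.7 and 35.1 CPM, below the highest Het sums. The summed mural and fibroblast markers ran from 10.3 to 25.6 (WT) and 8.83 to 36.7 CPM (Het) in D1-like nuclei and from 0 to 35.9 (12.3 to 35.9 without WT 4) and 11.9 to 40.0 CPM in D2-like nuclei, where Kcnj8 was at 0.

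Across all 21 marker lists the WT and Het ranges overlapped for 20 in D1-like and 21 in D2-like nuclei, with WT 4 or without it. The exception was the microglia list in D1-like nuclei, of which all 9 markers had UMIs, at 0 to 26.1 CPM (WT, 18.7 to 26.1 without WT 4) and 26.5 to 31.7 CPM (Het). In D2-like nuclei the microglia sums were 0 to 20.9 and 10.8 to 20.8 CPM with medians of 7.72 and 15.6, and C1qb and Tmem119 were at 0. The medians of 9 sums differed by more than 0.5 on the log2 scale. In D1-like nuclei these were the markers of MGE interneurons, from the medial ganglionic eminence (1499 CPM in WT and 941 CPM in Het) and the mural and fibroblast markers (15.9 and 23.9 CPM). In D2-like nuclei they were, beside microglia, the D1 markers (63.5 and 107 CPM) and general excitatory neuron markers (33.5 and 50.7 CPM), which had higher medians in Het. Choroid and ependymal markers (216 and 124 CPM), markers of CGE interneurons, from the caudal ganglionic eminence (385 and 260 CPM), cholinergic neuron markers (9.07 and 5.82 CPM) and intermediate progenitor markers (6.42 and 4.52 CPM) had lower medians in Het there. The part of these markers in the Foxo1 values was not tested. UMIs per D2-like nucleus were 1535 to 2105 in the WT and 1758 to 1937 in the Het libraries.

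Outside the striatal types the 6 genes were tested in 13 further classes. Over all 15 classes with enough libraries, 68 of 90 pairs of gene and class passed the filter on low counts, 0 were called by edgeR, and 9 had an unadjusted p under 0.05, the selected pair of Foxo1 and D2-like nuclei among them. Over all 104301 pairs of any gene and class 0% were called and 5.49% had such a p. Outside D1-like and D2-like nuclei 7 of 56 pairs had it, 12.5% against 5.46% of all pairs, and none of the 7 passed adjustment. Pairs of 1 gene share libraries across classes, so they are not independent.

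Foxo1 stood in deep-layer excitatory neuron-like nuclei of the Het libraries at 12.02 ± 1.51 CPM (n = 4) against 7.07 ± 1.97 CPM (n = 8), a log2 difference of 0.81, SE 0.22, which did not pass adjustment (edgeR, adjusted p = 0.414). The opposite sign was found in oligodendrocyte lineage-like nuclei, at 23.6 ± 4.59 against 32.3 ± 10.7 CPM (log2 -0.61, SE 0.24, adjusted p = 0.999). Foxo6 in deep-layer nuclei stood at 8.29 ± 1.85 CPM (Het) against 13.0 ± 4.06 CPM (WT, log2 -0.63, SE 0.25). In the same deep-layer nuclei the ranges of 2 of 21 marker lists did not overlap, those of Cajal-Retzius neurons at 77.9 to 128 CPM (WT) and 130 to 174 CPM (Het) and those of cholinergic neurons at 0.190 to 3.97 and 4.60 to 7.46 CPM. The medians of the intermediate progenitor markers (5.20 in WT and 9.47 CPM in Het), choroid and ependymal markers (21.5 and 34.9 CPM) and general inhibitory neuron markers (51.3 and 81.8 CPM) differed by more than 0.5 on the log2 scale. MGE markers there ran from 410 to 710 CPM (WT) and from 620 to 846 CPM (Het). The D1 markers had medians of 70.8 (WT) and 94.4 CPM (Het), with ranges that overlapped. In oligodendrocyte lineage-like nuclei no range stood apart, and medians past that size were those of the endothelial (18.2 and 27.0 CPM) and choroid and ependymal markers (14.3 and 40.9 CPM). The part of these markers in the Foxo1 and Foxo6 values was not tested.

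Foxp2 in MGE inhibitory neuron-like nuclei stood at 146 ± 52.5 CPM (Het) against 100 ± 19.1 CPM (WT), a log2 difference of 0.53, SE 0.16 (edgeR, adjusted p = 0.383). Foxp1 in the same class stood at 328 ± 64.6 CPM (Het) against 258 ± 46.7 CPM (WT), a log2 difference of 0.33, SE 0.13. Its log2 difference was 0.35, SE 0.14, in astroglia-like nuclei and 0.43, SE 0.20, in olfactory-type inhibitory neuron-like nuclei. These are the 7 pairs counted above.

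Marker sums of the same classes differed between the groups as follows. In MGE inhibitory neuron-like nuclei the MGE markers themselves ran from 23325 to 30245 CPM in WT and from 21793 to 25197 CPM in Het libraries, so the groups overlapped. They stood apart only without WT 4 (WT from 25658 CPM), although WT 4 held 417 nuclei of this class. The medians of the general excitatory neuron markers there were 42.8 (WT) and 72.8 CPM (Het). Those of the cholinergic neuron markers were 4.09 and 7.32 CPM and those of the D1 markers 84.0 and 111 CPM. In astroglia-like nuclei the D1 markers ran from 161 to 269 CPM (WT) and from 242 to 391 CPM (Het). The medians there were 63.9 and 94.6 CPM for the general excitatory neuron markers, 36.3 and 58.1 CPM for the choroid and ependymal markers and 4.60 and 9.01 CPM for the cholinergic neuron markers. In olfactory-type inhibitory neuron-like nuclei the medians were 82.6 and 123 CPM for the D1 markers, 17.3 and 27.7 CPM for the endothelial markers, 5.47 and 13.6 CPM for the cholinergic neuron markers and 37.5 and 20.1 CPM for the layer 6b and subplate markers. The part of these markers in the Foxp1 and Foxp2 values was not tested.

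**Figure D5:**
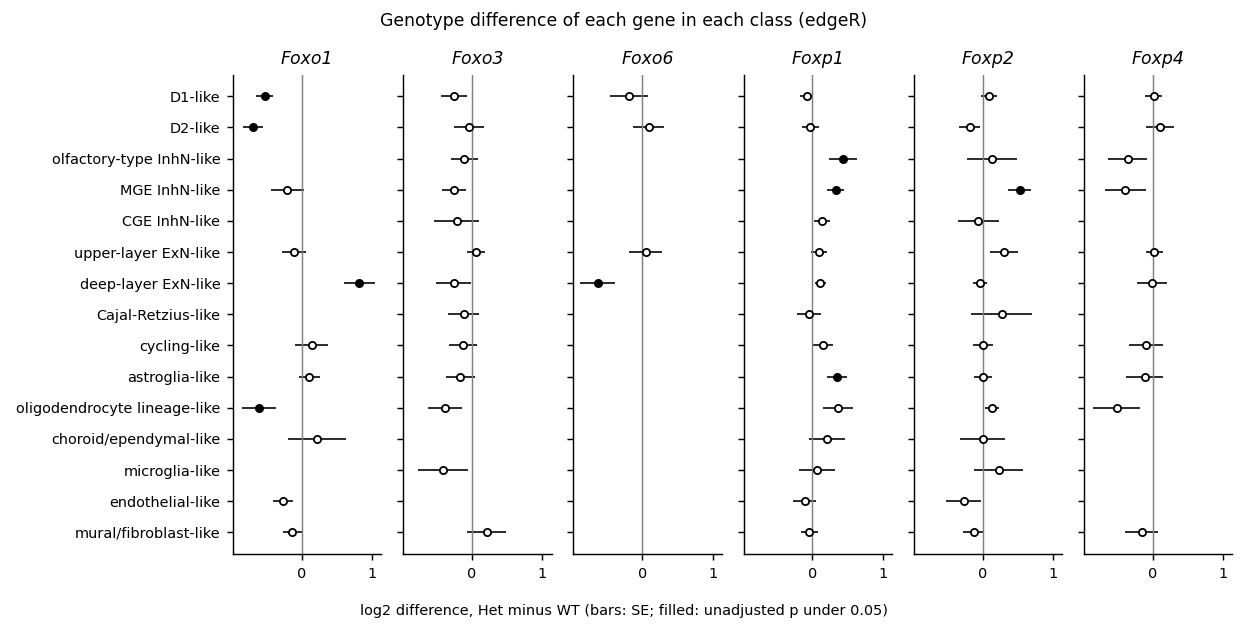
The log2 difference between Het and WT nuclei with its SE in each class where a gene passed the filter, 1 panel per gene, with filled points for an unadjusted p under 0.05. The Foxo1 points lie at -0.52 and -0.69 in D1-like and D2-like nuclei and at 0.81 in deep-layer excitatory neuron-like nuclei, and 0 of 68 pairs passed adjustment.

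Genes of the pathways around the 6 members were taken from fixed lists of insulin and AKT signalling, FOXO targets, FOXP partners, FOXP2 targets, other forkhead genes and striatal projection neuron genes. No gene of any list was called in D1-like or in D2-like nuclei. The 15 of 15 insulin and AKT genes tested in D1-like nuclei had a median log2 difference of -0.026 and 14 in D2-like nuclei had 0.071, beside -0.0029 and 0.0010 over all genes. For the FOXO target genes, 6 of 15 were tested in D1-like nuclei with a median of -0.10 and 5 in D2-like nuclei with -0.13. The 12 FOXP partner genes tested in D1-like nuclei had 0.085, and the 8 in D2-like nuclei -0.013. The FOXP2 target genes (4 and 3 tested) had 0.0072 and 0.12, other forkhead genes (7 and 5 tested) -0.023 and 0.015, and striatal projection neuron genes (10 and 8 tested) -0.018 and -0.028.

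Pik3r1, which encodes the regulatory subunit of PI3 kinase, had the smallest p of the insulin list in D2-like nuclei, at 53.1 ± 8.21 CPM (Het) against 77.4 ± 15.5 CPM (WT), a log2 difference of -0.57, SE 0.15 (edgeR, adjusted p = 0.264). In D1-like nuclei it was -0.20. Sesn1, a FOXO target that restrains growth signalling, stood at 100.5 ± 12.1 CPM (Het) and 138 ± 46.9 CPM (WT) in D2-like nuclei (-0.33, adjusted p = 0.620). Mef2c, a FOXP2 target in the striatum, had 0.35 in D2-like nuclei with the same adjusted p, and Pde10a, a striatal phosphodiesterase, had -0.29. Mta1, of the FOXP partner list, had 0.35 there. In D1-like nuclei the gene with the smallest p among the FOXP partners was Mbd3, a subunit of the NuRD complex, at 6.25 ± 1.80 CPM (Het) against 10.1 ± 7.60 CPM (WT), a log2 difference of -0.72, SE 0.31 (edgeR, adjusted p = 0.797). Those of the other lists were Pik3ca at -0.16, Sod2 at -0.14, Mef2c at 0.19, Foxn3 at 0.13 and Ikzf1 at 0.21, none of them called.

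The genes whose levels over the 16 classes were most like each member were named by Pearson's r among 15470 genes. Plekhg2, Impa2 and Tspan9 were nearest to Foxo1, at r of 0.89, 0.87 and 0.87. Mbd6, Mdm4 and Mkln1 were nearest to Foxo3 (0.90, 0.88 and 0.86), and Xkr7, Thy1 and Gm37965 to Foxo6 (0.90, 0.89 and 0.87). Gm20705, the gene inside Foxp1, was nearest to it at 0.85, followed by Gucy1a1 at 0.84 and Gm48651 at 0.81. Gm49705, Syt6 and Kirrel were nearest to Foxp2 (0.86, 0.86 and 0.85), and Fam214a, Ptprq and Ppp1r12b to Foxp4 (0.86, 0.80 and 0.77). These values are descriptions over classes that share libraries.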

How the data were processed

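Per the labels, the files hold P1 forebrain nuclei of 12 animals. The authors mapped ScaleBio reads to mm10, counted UMIs per gene and nucleus and used Seurat 4.3.0. The deposited values are expected counts (not all whole), and class sums were rounded before testing. Following the study's criteria, nuclei were kept with UMIs between 800 and 6000, between 300 and 3000 genes detected, a mitochondrial share of no more than 1% and a ratio of log genes over log UMIs of 0.9 or above, and 3644 of them were removed as doublets (the 5% of each library's barcodes with the most simulated doublets among their neighbours). Leiden clustering (leidenalg 0.10.2, resolution 1.5, 3000 variable genes, 50 components) left the 6 genes out. Classes were named from marker lists. Sums per class and library with at least 10 nuclei were tested with edgeR 4.0.16 (R 4.3.3, TMM, filterByExpr, genotype only), with Benjamini-Hochberg adjustment over all genes. DESeq2 1.42.0 was an alternative. Planned as UMI counts, the tests took rounded sums.

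The members and lists were chosen with earlier results of these data known. The gene named from each list and class is the one with the smallest p (Pik3r1 in D1-like nuclei was added for its D2-like value, and 1 gene is not reported here), and the genes most like each member are the 3 with the highest r among genes over 10 CPM in a class. On simulated data for D1-like nuclei, 42.3% of genes changed by 0.7 and 90.7% of those changed by 1.5 (log2) were recovered, and for D2-like nuclei 30.5 and 98.9%. The simulation gave every gene the same dispersion and had 97 (D1-like) and 95 (D2-like) changed genes tested at each size. In the real classes 0% of genes were called, so these shares do not measure the power of the tests above. The animals were generally littermates, with the litter of each not given, so p-values measure the spread between these libraries and litter could not be a term.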

Additional observations from a re-analysis of the deposited data

Results flagged for a closer look

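In 24 groups of 4 or 8 libraries (6 genes, 2 striatal classes, 2 genotypes), 5 had a library far from its group by Dixon's test. For normally distributed values that test flags about 1 in 20 groups. The share of all genes flagged in the same libraries was not counted, so the 5 groups do not set these genes apart. Foxo3 in D1-like nuclei of Het 1 stood at 53.3 CPM against 38.3 CPM in the nearest Het library, and Foxp2 in the same nuclei at 1645 CPM against 1973 CPM. Foxo6 in D1-like nuclei of WT 5 stood at 25.0 CPM, on 19 UMIs, against 16.03 CPM in the nearest WT library, WT 4, which rested on 1 UMI. Without WT 4 the highest of the other WT libraries was at 15.4 CPM. In the 13 D2-like nuclei of WT 4, Foxo6 stood at 0 CPM with 0 UMIs, and Foxp4 at 150 CPM, on 3 UMIs, against 59.2 CPM in the nearest WT library. The cause of these values was not tested.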

How the results depend on the processing

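Of 689 alternative values, 626 were the same as the main value. For log2 differences this means the same sign and the same side of the call, and for counts an equal count. For D1-like over D2-like ratios it means the same sign and a value within the SD of the main ratio. The calls of members were 0 in D1-like and 0 in D2-like nuclei, but with no filter on low counts Foxo1 was called in both (1 member each, 3 pairs of gene and class in all, the third being Foxp2 in MGE inhibitory neuron-like nuclei), and with doublets kept it was called in D2-like nuclei (1). Leaving out 1 library gave 0 to 1 member called in either class and 0 to 1 pair, the D1-like call without WT 8 and the D2-like call without WT 1. The share of all genes called under these settings is not given here, so these calls do not set Foxo1 apart from other genes. The D2-like difference of Foxo1 chose the genes, so its calls are no independent outcome, and its adjusted p ranged from 0.00427 to 0.948 in D1-like nuclei. Its log2 difference was below 0 under 25 of 25 alternatives in D1-like nuclei and 23 of 24 in D2-like nuclei, the exception being nuclei gated one by one (0.13).

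The fit with the replicate block (same-numbered libraries of the same sex) kept only WT 1, WT 2, WT 3 and WT 6 beside Het 1 to 4. It left out WT 4, WT 5, WT 7 and WT 8, so the block and the smaller WT group cannot be told apart. In this fit 0 members were called in either class and Foxo1 stood at -0.52 in D1-like and -0.57 in D2-like nuclei. Deviations of same-numbered libraries correlated at -0.136, 0.101, 0.0548 and 0.222, and 1 of 4 Het libraries, Het 4, correlated best with its own number (WT 6). These 4 values cannot show whether same-numbered animals shared a litter or a step of handling, and the litter of each was not given. The fit with the block, on fewer WT libraries, turned Foxo3 to 0.13 and 0.0093 in D1-like and D2-like nuclei. It turned Foxp2 to -0.053 and Foxp4 to -0.051 in D1-like nuclei.

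Nuclei gated one by one gave D1-like over D2-like log2 ratios of 2.16 for Foxo1, 0.69 for Foxo3, -0.45 for Foxo6, 0.67 for Foxp1 and -0.029 for Foxp2, and genotype differences of 0.056 (Foxo3) and 0.20 (Foxp1) in D1-like and 0.44 (Foxp1) and -0.062 (Foxp4) in D2-like nuclei. The narrower gate turned Foxp1 to 0.068 and 0.16, and the largest D1-like cluster alone turned Foxo3 to 0.019 and Foxp4 to -0.016; both were chosen after seeing the data. The Foxo3 ratio was 0.0081 at resolution 0.8, 0.040 at 2.5, 0.019 with the members among the variable genes, 0.022 with doublets kept and 0.025 without WT 4, and the Foxp1 ratio was -0.32 at resolution 0.8. Foxp4 in D1-like nuclei was -0.00032 with sex as covariate, -0.011 in male libraries and -0.016 at resolution 0.8. Foxo3 in D2-like nuclei was 0.25 in male libraries and 0.012 with doublets kept, Foxp1 there 0.041 with no filter and 0.026 in male libraries, and the Foxo1 interaction 0.017 in male libraries.

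Leaving out 1 library, the differences in D1-like nuclei ranged from -0.37 (without Het 1) to -0.093 (without WT 7) for Foxo3, -0.61 to 0.0098 for Foxo6 and -0.056 to 0.087 for Foxp4, those in D2-like nuclei from -0.19 to 0.065 for Foxo3, -0.052 to 0.20 for Foxo6, -0.079 to 0.0095 for Foxp1, -0.28 (without Het 1) to -0.060 (without WT 5) for Foxp2 and -0.079 to 0.18 for Foxp4, the Foxo1 interaction from -0.22 (without Het 3) to -0.050 (without Het 1), the Foxp4 interaction from -0.077 to 0.11, and Foxp2 in MGE inhibitory neuron-like nuclei from 0.33 (without Het 4) to 0.73 (without Het 1). In D1-like nuclei, leaving out 1 library gave -0.12 to -0.048 for Foxp1 and 0.039 to 0.17 for Foxp2. The cause of these ranges was not tested.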
